A study of Arabidopsis thaliana with 32 samples.

Results

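The comparison asks whether the response of Arabidopsis thaliana roots to zaxinone differed between the kai2 mutant and the wild type Col-0. It covers the 1138 genes that the authors' deposited tables list in both genotypes, out of 3443 genes listed in any of the 4 genotypes of the series. These genes make up 62.0% of the 1835 genes listed in Col-0 and 62.1% of the 1833 listed in kai2. For each gene the log2 fold change of zaxinone over mock in Col-0 was subtracted from that in kai2, so a positive difference means a higher value in kai2. There were 4 groups of 4 libraries, namely Col-0 mock, Col-0 zaxinone, kai2 mock and kai2 zaxinone. All plants were 5 weeks old and grown in hydroponics, and roots were taken 6 h after zaxinone (20 µM, with 1% acetone) or 1% acetone alone had been put into the medium. The labels do not name the kai2 allele, and they call the 4 libraries of a group replicates without saying whether they came from separate plants, so p-values reflect how these libraries vary, which may be technical in part.

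Zaxinone is a small apocarotenoid, that is, a product of carotenoid cleavage, and is known as a growth regulator first described in rice. KAI2 is an α/β-hydrolase receptor, a paralog of the strigolactone receptor D14. It takes part in responses to karrikins, compounds found in smoke, and is thought to perceive an endogenous ligand that has not been identified. KAI2 and D14 both act with the F-box protein MAX2, which directs repressor proteins of the SMXL family to degradation.

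Membership in both tables was set by the authors' calls within each genotype. Their limits were 0.05 for the adjusted p-value and 1, in either direction, for the log2 fold change. How many genes the authors tested was inferred here from their p-values and adjusted p-values. By that estimate they listed 7.33% of about 25041 tested genes in Col-0 and 7.44% of about 24625 in kai2. Another 697 genes were listed in Col-0 and not in kai2, and 695 in kai2 and not in Col-0. Their counts in the other genotype were not analysed here, and a gene missing from a table is not shown to be unchanged. Genes that responded in 1 genotype alone are therefore outside the comparison, and listing in both favours genes with similar effects. The smallest absolute effects among the 1138 were 1.00 in both genotypes in the authors' deposited tables.

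Depth, recovered from the counts and FPKM values, was 67.6 to 101.9 M fragments (M, mega) per library in Col-0 and 42.8 to 68.8 M in kai2. The 1138 genes held 3.87 to 5.80% of these fragments. KAI2 itself was listed in kai2 only, with 188, 163, 140 and 163 of the authors' normalized counts in the mock libraries and 572, 527, 428 and 564 in the zaxinone libraries, which did not overlap. With no Col-0 value for KAI2, these counts do not check the genotype labels. Among the 1138 genes, kai2 mock replicate 1 lay far outside the other 3 libraries of its group in 73 genes (6.41%) and kai2 zaxinone replicate 1 in 59 genes, against 0 to 34 genes in the other 14 libraries. For a number of genes and lists whose value moved when either of these 2 libraries was left out, the value without it is given. DESeq2 was refitted without kai2 mock replicate 1 only, so its calls without kai2 zaxinone replicate 1 are not known. Of 26 shoot photosynthesis genes, 1 was in both tables, PSBO2, a subunit of photosystem II. Its scaled counts were 26.4 to 39.4 in Col-0 mock, 108 to 157 in Col-0 zaxinone, 16.9 to 92.7 in kai2 mock and 141 to 524 in kai2 zaxinone. Its difference was 0.53, and it was 1.26 without kai2 mock replicate 1 and -0.05 without kai2 zaxinone replicate 1. Any part of shoot tissue in the results was not tested, and in bulk RNA fewer cells of a type and less RNA per cell cannot be told apart. Of 18 root marker genes, 1 was in both tables, so the tissue label could be checked to that extent only.

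The direction of the zaxinone effect was almost always shared. Of the 1138 genes, 599 were higher after zaxinone in both genotypes, 537 were lower in both, 2 were lower in Col-0 and higher in kai2, and 0 were higher in Col-0 and lower in kai2. The median effect of the 599 raised genes was 1.71 in Col-0 and 1.90 in kai2 on the log2 scale. The median effect of the 537 lowered genes was -1.79 in Col-0 and -1.73 in kai2. The effect lay further from 0 in kai2 for 364 of the raised and 252 of the lowered genes. The median difference over all 1138 genes was 0.06, the quartiles of the differences were -0.23 and 0.36, and the 5th and 95th percentiles were -0.93 and 0.95. Across genes the effects correlated with r = 0.97, a value that the choice of genes listed in both tables helps to set. In the authors' deposited tables, 999 of the 1138 genes were also listed in d14, 997 of them in the direction seen in Col-0, and 862 in max2, 859 of them in that direction.

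**Figure D1:**
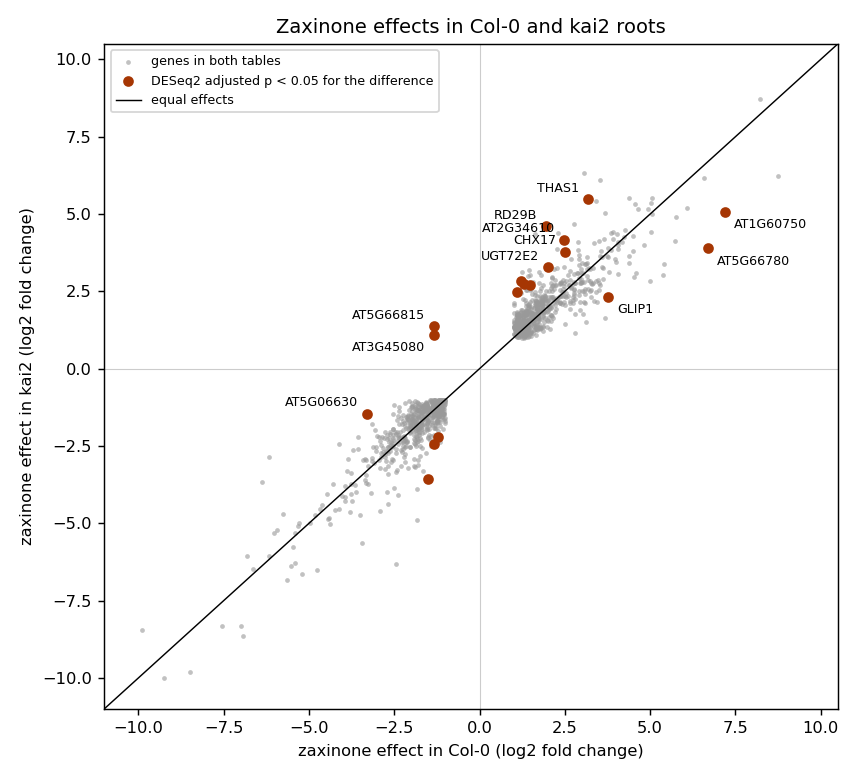
Zaxinone effect (log2 fold change over mock, edgeR) in Col-0 on the horizontal axis and in kai2 on the vertical axis, 1 point per gene for the 1138 genes in both tables, with the line of equal effects. Points lie along the line in the upper right and lower left, the empty band around 0 is the authors' limit of 1, the 18 filled points are genes that DESeq2 called for the difference, and 2 of them lie in the upper left.

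No gene passed edgeR's quasi-likelihood test of the genotype by treatment difference at an adjusted p of 0.05 (0 of 1138, 0.0%, Benjamini-Hochberg over all 1138). The smallest adjusted p was 0.059. At an unadjusted p under 0.05 there were 100 genes (8.79%), of which 66 (5.8%) had the higher value in kai2 and 34 (2.99%) the lower. DESeq2 on the same counts called 18 genes (1.58%) at an adjusted p under 0.05, and limma-voom called 2 (0.176%). Without kai2 mock replicate 1, DESeq2 called 22 genes (1.93%), of which 15 were among the 18. The calls lost were LOG5, AT4G37225 and AT2G02690. All but 1 of the 18 genes were among the 30 with the smallest edgeR p-values, and their edgeR adjusted p-values ran from 0.059 to 0.284. Whether a gene counts as different thus depended on the tool.

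The precision set a limit on what could be seen. The median standard error of a difference was 0.36, and it was 0.32 for the 932 genes with a mean scaled count of at least 50. On counts simulated from these libraries, 106 of the 1138 genes were given a difference of 1 on the log2 scale and 94 a difference of 2. All other genes were given none. There edgeR recovered 46.2% of the genes with a difference of 1 and 90.4% of those with 2. With fewer genes truly different, the adjusted threshold is harder to pass, so recovery in the real data may be lower. For 507 genes (44.6%) the 95% interval of the difference lay within -1 and 1. For the other 631 genes a difference of 1 or more was inside the interval, so a missed threshold does not show that the genotypes responded alike. The fitted difference was 1 or more in size for 107 genes (9.40%).

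The 18 genes called by DESeq2 were named after their values had been seen. Of these, 9 had a larger rise in kai2, 3 a smaller rise, 3 a deeper fall, 1 a shallower fall and 2 opposite directions. Among all 1138 genes the counts were 364, 235, 252, 285 and 2 in the same order. Levels are given as scaled counts, raw counts divided by a library scale built from the authors' factors and the library totals, so that levels in Col-0 and kai2 can be set side by side as far as those totals allow. For 12 of the 18, the zaxinone libraries of Col-0 and kai2 did not overlap, against 24.1% of all 1138 genes. For 6 of the 18 the mock libraries did not overlap, against 19.0% of all, and for 2 neither overlapped, against 9.05% of all. These counts describe where the difference sat and add no test, because the genes were chosen for it.

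CHX17 (AT4G23700), a cation/H+ exchanger, had the smallest p. Its scaled counts were 790, 994, 919 and 936 in Col-0 mock and 6473, 6584, 3976 and 3708 in Col-0 zaxinone. In kai2 they were 1070, 947, 1038 and 1233 in mock and 13554, 15517, 16338 and 13827 in zaxinone. The mock libraries of the genotypes overlapped, and every kai2 zaxinone library was above every Col-0 zaxinone library. The effect was 2.51 ± 0.18 (SE) in Col-0 and 3.79 ± 0.18 in kai2, a difference of 1.28 ± 0.25 with a 95% interval of 0.76 to 1.8 (edgeR adjusted p = 0.059, DESeq2 adjusted p = 0.0019).

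UGT72E2 (AT5G66690), a glucosyltransferase that acts on monolignols, the building blocks of lignin, showed a difference of the same size that sat in both treatments. Its level in kai2 was below that in Col-0 in mock (log2 -0.72 ± 0.19) and above it after zaxinone (0.56 ± 0.18). Its scaled counts were 3828, 2877, 2972 and 3006 in Col-0 mock and 2337, 1892, 1640 and 1804 in kai2 mock. After zaxinone they were 19100, 12113, 10028 and 9823 in Col-0 and 18803, 18034, 20723 and 17576 in kai2. All kai2 mock libraries were below all Col-0 mock libraries, and the zaxinone libraries overlapped through Col-0 zaxinone replicate 1. The effect was 2.01 ± 0.18 in Col-0 and 3.29 ± 0.19 in kai2, a difference of 1.28 ± 0.26 (edgeR adjusted p = 0.059, DESeq2 adjusted p = 0.0030). Leaving out 1 library at a time gave differences of 1.18 to 1.54 and edgeR adjusted p-values of 8.4e-04 to 0.164. The largest difference and the smallest adjusted p came without Col-0 zaxinone replicate 1.

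AT2G34610, annotated as a cotton fiber protein, had 48.8, 29.4, 34.1 and 31.5 scaled counts in Col-0 mock and 248, 214, 164 and 172 in Col-0 zaxinone. In kai2 it had 27, 15.1, 26.1 and 15.4 in mock and 506, 308, 399 and 317 in zaxinone. The kai2 libraries were below all Col-0 libraries in mock and above all of them after zaxinone. The difference was 1.71 ± 0.38, from 2.46 in Col-0 to 4.17 in kai2 (edgeR adjusted p = 0.071, DESeq2 adjusted p = 0.0030).

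RD29B (AT5G52300), a widely used marker gene of the abscisic acid response, was low in all 8 mock libraries, at 6.37 to 14.5 scaled counts in Col-0 and 7.04 to 19.9 in kai2. After zaxinone it reached 33.8, 64.1, 38.2 and 18.6 in Col-0 and 594, 239, 201 and 169 in kai2. The zaxinone libraries did not overlap, and kai2 zaxinone replicate 1 was far above the other 3 kai2 libraries. The difference was 2.66 ± 0.67 (edgeR adjusted p = 0.111, DESeq2 adjusted p = 0.013) and 2.1 in edgeR without that library.

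THAS1 (AT5G48010), the thalianol synthase that opens a root triterpene pathway, had 218, 51.7, 81.7 and 118 scaled counts in Col-0 mock and 163, 48.1, 92.1 and 69.3 in kai2 mock. After zaxinone it had 908, 1885, 1028 and 443 in Col-0 and 3755, 4431, 6116 and 2536 in kai2. The mock ranges overlapped and the zaxinone ranges did not. The effect was 3.18 ± 0.44 in Col-0 and 5.48 ± 0.45 in kai2, a difference of 2.31 ± 0.63 (edgeR adjusted p = 0.133, DESeq2 adjusted p = 0.021).

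The other 4 genes with a larger rise in kai2 were LOG5, AT1G28660, AT1G72540 and AT4G37225. LOG5, of the family that releases active cytokinins from their nucleotides, had 24.6 to 32.6 scaled counts in Col-0 mock, 53.0 to 76.5 in Col-0 zaxinone, 8.25 to 30.8 in kai2 mock and 99.6 to 137 in kai2 zaxinone, with a difference of 1.45 ± 0.44 (DESeq2 adjusted p = 0.026, and 0.090 without kai2 mock replicate 1). AT1G28660, annotated as a GDSL-like lipase, went from 44.6 to 60.4 in Col-0 mock to 91.4 to 135 after zaxinone, and from 26.1 to 57.0 to 148 to 256 in kai2. Both genes were higher in every kai2 zaxinone library than in any Col-0 zaxinone library. For AT4G37225, annotated as a non-coding RNA, the zaxinone libraries overlapped (88.3 to 127 in Col-0, 79.6 to 124 in kai2) and the kai2 mock libraries, at 5.50 to 24.9, were all below the Col-0 mock libraries, at 38.3 to 53.9 (DESeq2 adjusted p = 0.021, and 0.090 without kai2 mock replicate 1). AT1G72540, a protein kinase gene, overlapped between genotypes in both treatments and had a difference of 1.21 ± 0.33. The labels do not settle whether reads kept their strand, and AT1G72540 and AT4G37225 each overlap another annotated locus, so their counts are uncertain.

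**Figure D2:**
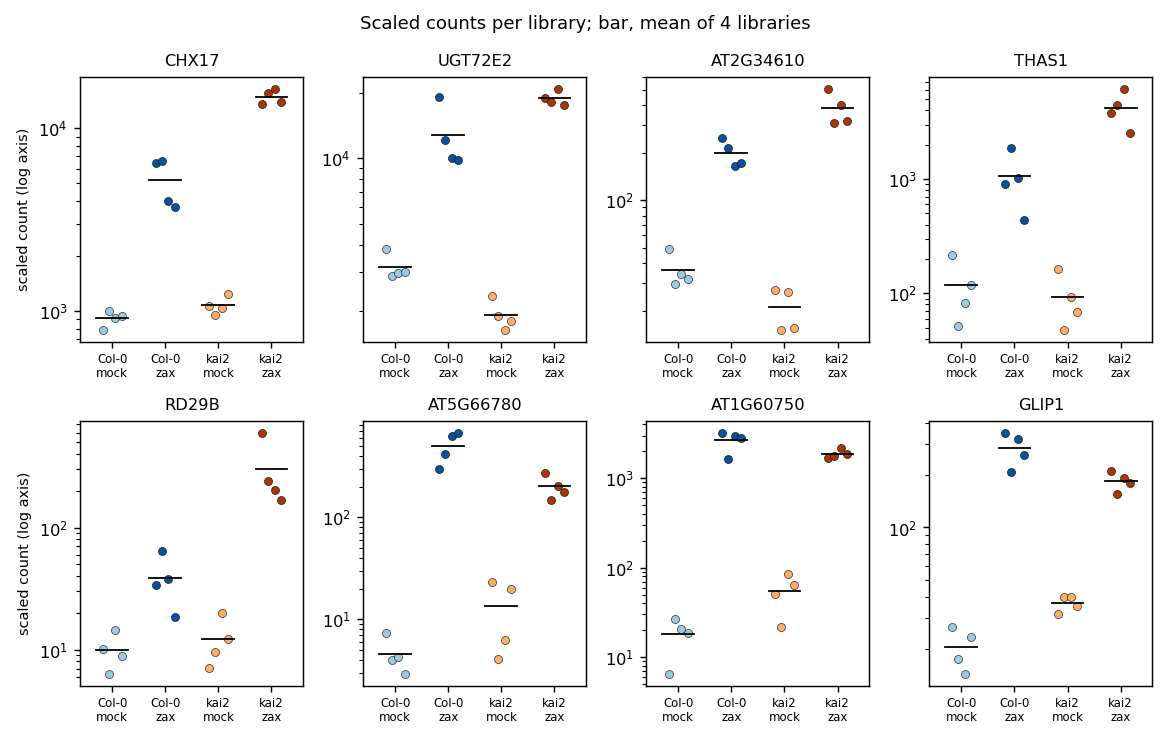
Scaled counts of 8 genes per library on a log axis, grouped as Col-0 mock, Col-0 zaxinone (zax), kai2 mock and kai2 zaxinone, with 1 point per library and a bar at the mean of 4. In CHX17, THAS1 and RD29B the kai2 zaxinone points sit above all Col-0 zaxinone points with overlapping mock points, in UGT72E2 and GLIP1 the mock points are apart, and in AT5G66780 the kai2 zaxinone points are lower.

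Another 3 of the 18 had a smaller rise in kai2. AT5G66780, a late embryogenesis abundant protein of the kind made in seeds and under water deficit, had 7.29, 3.98, 4.26 and 2.95 scaled counts in Col-0 mock and 299, 419, 624 and 668 in Col-0 zaxinone. In kai2 it had 23.5, 4.12, 6.22 and 20.0 in mock and 272, 149, 204 and 178 in zaxinone. The mock ranges overlapped and all kai2 zaxinone libraries were below all Col-0 zaxinone libraries. The effect was 6.70 ± 0.47 in Col-0 and 3.89 ± 0.42 in kai2, a difference of -2.81 ± 0.63 (edgeR adjusted p = 0.071, DESeq2 adjusted p = 0.0019) and of -2.35 without kai2 mock replicate 1.

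AT1G60750, annotated as an NAD(P)-linked oxidoreductase, had 6.56, 27.1, 20.4 and 18.7 scaled counts in Col-0 mock and 50.5, 22, 84.7 and 64.7 in kai2 mock. After zaxinone it had 3204, 1635, 2966 and 2786 in Col-0 and 1682, 1769, 2160 and 1856 in kai2. The groups overlapped between genotypes in both treatments, and the mean was higher in kai2 mock and lower in kai2 zaxinone. The effect was 7.19 ± 0.35 in Col-0 and 5.07 ± 0.33 in kai2, a difference of -2.12 ± 0.48 (edgeR adjusted p = 0.072, DESeq2 adjusted p = 0.0030).

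GLIP1 (AT5G40990), a secreted GDSL lipase known from resistance to a fungal pathogen, had 27, 17.5, 14.5 and 23.62 scaled counts in Col-0 mock and 31.7, 39.9, 39.8 and 35.4 in kai2 mock. After zaxinone it had 349, 209, 321 and 260 in Col-0 and 210, 155, 192 and 181 in kai2. The kai2 mock libraries were all above the Col-0 mock libraries, and the zaxinone ranges met at 209 and 210. The difference was -1.45 ± 0.35 (edgeR adjusted p = 0.100, DESeq2 adjusted p = 0.0091).

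Among the genes lowered in both genotypes, the DESeq2 call with the shallower fall in kai2 was AT5G06630, a proline-rich extensin-like gene of the cell wall. It had 594, 949, 955 and 502 scaled counts in Col-0 mock and 87.8, 122, 35 and 57.7 in Col-0 zaxinone. In kai2 it had 1563, 890, 954 and 797 in mock and 311, 481, 234 and 507 in zaxinone, so that all kai2 zaxinone libraries were above all Col-0 zaxinone libraries. The effect was -3.31 ± 0.34 in Col-0 and -1.45 ± 0.33 in kai2 (difference 1.86 ± 0.48, edgeR adjusted p = 0.122, DESeq2 adjusted p = 0.019).

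The 3 genes with a deeper fall in kai2 were AT3G44703, AT2G02690 and AT4G19980, of which the first also overlaps another locus. AT3G44703, annotated as a transmembrane protein, had 36.4 to 55.3 scaled counts in Col-0 mock, 10.8 to 21.1 in Col-0 zaxinone, 43.4 to 70.8 in kai2 mock and 2.31 to 6.81 in kai2 zaxinone, with a difference of -2.06 ± 0.52. AT2G02690, a C1 domain protein, differed by -1.10 ± 0.37 (edgeR adjusted p = 0.284), and its DESeq2 adjusted p went from 0.049 to 0.109 without kai2 mock replicate 1. AT4G19980, a hypothetical protein, differed by -0.98 ± 0.26. In these 3 genes every kai2 zaxinone library was below every Col-0 zaxinone library.

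Both genes listed in opposite directions were weakly expressed. AT3G45080, annotated as a P-loop nucleoside triphosphate hydrolase, had 56.8, 38.2, 57.0 and 66.9 scaled counts in Col-0 mock and 29.5, 36.7, 7.77 and 12.1 in Col-0 zaxinone. In kai2 it had 29.3, 19.2, 8.71 and 13.9 in mock and 42.8, 33.5, 35.9 and 41.4 in zaxinone. Mock libraries of Col-0 were all above those of kai2, while zaxinone libraries overlapped. The difference was 2.44 ± 0.61 (edgeR adjusted p = 0.111, DESeq2 adjusted p = 0.014).

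AT5G66815, annotated as a transmembrane protein, had 54.7, 66.8, 21.3 and 27.6 scaled counts in Col-0 mock and 23.8, 19.5, 9.07 and 14.9 in Col-0 zaxinone. In kai2 it had 29.3, 8.25, 31.1 and 7.70 in mock and 24.3, 37.0, 53.0 and 88.4 in zaxinone. Mock and zaxinone libraries overlapped within both genotypes, while the kai2 zaxinone libraries were all above the Col-0 zaxinone libraries, narrowly so at 24.3 and 23.8. The difference was 2.72 ± 0.73 (edgeR adjusted p = 0.126, DESeq2 adjusted p = 0.021). Neither gene was listed in the authors' deposited tables for d14 or max2.

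**Figure D3:**
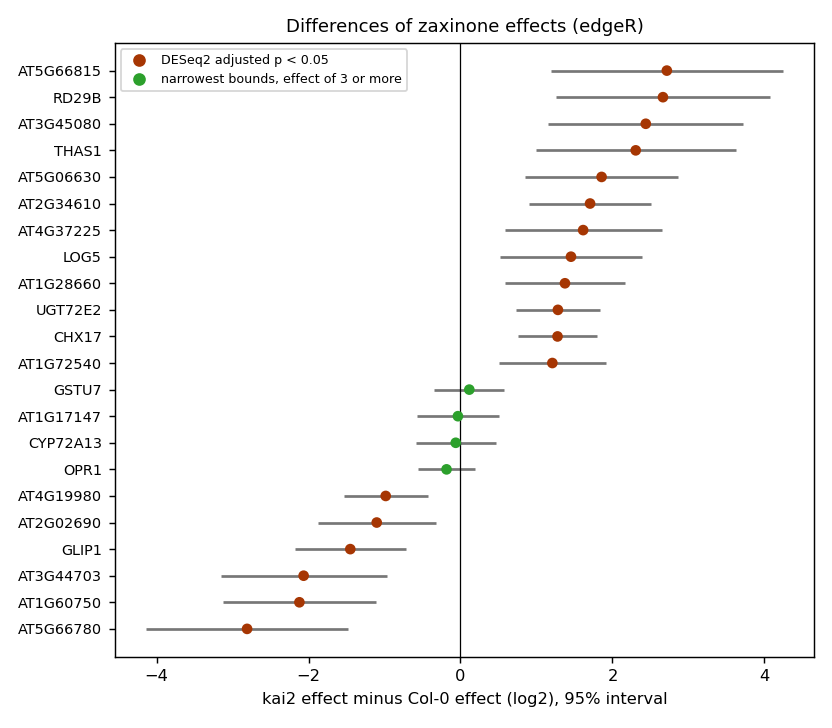
Difference of the zaxinone effect, kai2 minus Col-0 (log2, edgeR), with its 95% interval for the 18 genes DESeq2 called and for 4 strongly raised genes with the narrowest bounds. None of the 18 intervals covers 0, from AT5G66780 at -2.81 to AT5G66815 at 2.72, and the 4 others cover 0 within -0.59 to 0.58. Both sets were chosen from these same counts, so this adds no test, and the intervals are not adjusted for the number of genes.

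At the other end, 4 genes with effects of at least 3 in both genotypes had the tightest bounds on the difference. OPR1, a 12-oxophytodienoate reductase family enzyme, had 915 to 1155 scaled counts in Col-0 mock, 15095 to 17881 in Col-0 zaxinone, 738 to 996 in kai2 mock and 12440 to 13805 in kai2 zaxinone. Its effects were 4.05 ± 0.13 and 3.87 ± 0.13, and the interval of the difference ran from -0.56 to 0.19. GSTU7, a tau-class glutathione transferase, had effects of 3.54 and 3.66 with an interval of -0.35 to 0.58. OPR1 and GSTU7 overlap other annotated loci, OPR1 its neighbour OPR2, so their counts are uncertain. CYP72A13, a cytochrome P450, had effects of 4.17 and 4.11 (interval -0.59 to 0.47), and AT1G17147, a VQ motif protein, 3.86 and 3.83 (interval -0.58 to 0.51). For these 4 genes a difference of 1 was outside the interval.

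In the authors' deposited tables, 16 of the 18 genes were also listed in d14, 10 with an effect nearer that of kai2 and 6 nearer that of Col-0. In max2 14 were listed, 7 nearer kai2 and 7 nearer Col-0. The same count was not made over all genes in both tables, so these counts have no share to be set against. The 18 genes were also chosen because Col-0 and kai2 lay apart in them. None of these differences was tested. CHX17 was listed at 3.61 in d14 and 2.15 in max2, beside 2.51 in Col-0 and 3.79 in kai2. RD29B was listed at 4.62 in d14 and 2.76 in max2, beside 1.96 in Col-0 and 4.63 in kai2. AT5G66780 was listed at 4.88 in d14 and 4.33 in max2, beside 6.73 in Col-0 and 3.90 in kai2. In these 3 genes the d14 value lay nearer that of kai2. In the same deposited tables THAS1 was at 3.39 in d14 and 3.94 in max2, beside 3.18 in Col-0 and 5.49 in kai2. AT1G60750 was listed at 6.5 in d14 and 5.33 in max2, beside 7.19 and 5.07. LOG5 and AT4G19980, not listed in max2, were at 1.41 and -1.16 in d14, beside 1.3 and -1.23 in Col-0 and 2.76 and -2.21 in kai2. In these 4 genes the d14 value lay nearer that of Col-0. These tables give no test of one mutant against another.

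Gene lists from textbook knowledge were then read for the same difference. A list is described by its counts and median, beside a median of 0.06 and 8.79% of genes at an unadjusted p under 0.05 for all 1138. In every list, edgeR called 0 genes at an adjusted p under 0.05. The median of all 1138 was 0.14 without kai2 mock replicate 1 and 0.05 without kai2 zaxinone replicate 1.

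The list closest to the receptor held little. Of 16 genes of strigolactone and karrikin signalling, 1 was in both tables, HB40, a homeodomain factor known to act with BRC1, a target of strigolactone signalling in buds. HB40 had 21.5 to 55.1 scaled counts in Col-0 mock, 238 to 385 in Col-0 zaxinone, 16.4 to 77.0 in kai2 mock and 145 to 333 in kai2 zaxinone. Its effect was 3.1 ± 0.40 in Col-0 and 2.57 ± 0.41 in kai2, and the interval of the difference, -1.72 to 0.67, allowed values of 1 or more in size. Of 18 genes of carotenoid and strigolactone metabolism, 2 were in both tables and were raised in each. BCH1, a carotene hydroxylase, had effects of 2.38 and 2.80. CCD7, the carotenoid cleavage dioxygenase of strigolactone synthesis, had effects of 1.91 and 1.63. In CCD7 kai2 mock replicate 1 stood at 71.6 scaled counts against 7.70 to 14.9 in the other 3, and the difference turned from -0.29 to 0.99 without that library.

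Detoxification was the list with the most genes in both tables, 24 of 43, all raised in each genotype. Their median effect was 3.11 in Col-0 and 3.05 in kai2, and the median difference was 0.06 (0.18 without kai2 mock replicate 1 and -0.015 without kai2 zaxinone replicate 1). For 16 of the 24 the interval of the difference lay within -1 and 1, and 2 had an unadjusted p under 0.05. The differences ran from -2.01 in AKR4C9, a smaller rise in kai2 whose unadjusted p was not under 0.05, to 0.56 in GSTU22. GSTU19, a glutathione transferase, had 13635 to 16029 scaled counts in Col-0 mock, 80173 to 148458 in Col-0 zaxinone, 8788 to 12129 in kai2 mock and 79157 to 104555 in kai2 zaxinone. Its ranges overlapped after zaxinone, and the difference was 0.23 ± 0.24. The pair with an unadjusted p under 0.05 was GSTU22, with effects of 3.64 and 4.21, and ABCC2, a vacuolar transporter of glutathione conjugates, with 2.39 and 2.78.

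Abscisic acid response genes were all raised in both genotypes (15 of 26 in both tables), with a median difference of 0.25. The effect lay further from 0 in kai2 for 12 of the 15, against 364 of all 599 raised genes. Without kai2 zaxinone replicate 1 the median was 0.05, and without kai2 mock replicate 1 it was 0.24. RD29B, described above, was the highest of them. HB7, a homeodomain factor induced by abscisic acid and water deficit, had effects of 1.72 and 2.18. Its difference was 0.46 ± 0.22, and 0.27 without kai2 zaxinone replicate 1, which had 9154 scaled counts against 5743 to 5960 in the other 3. LTI30, a dehydrin, rose from 3703 to 4524 scaled counts to 19354 to 21996 in Col-0 and from 4839 to 8125 to 21389 to 30925 in kai2, a difference of -0.24 ± 0.23, and of -0.05 without kai2 mock replicate 1.

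Of 16 genes of abscisic acid metabolism and transport, 4 were in both tables and raised in each, with a median difference of -0.21 that was -0.02 without kai2 mock replicate 1 and -0.15 without kai2 zaxinone replicate 1. NCED3, which makes the committed step of abscisic acid synthesis, had 51.1 to 115 scaled counts in Col-0 mock, 968 to 1228 in Col-0 zaxinone, 39.9 to 149 in kai2 mock and 1547 to 1961 in kai2 zaxinone. Every kai2 zaxinone library was above every Col-0 zaxinone library, yet the mock libraries varied, and the difference was 0.50 ± 0.41 with an interval of -0.35 to 1.35. The catabolic genes CYP707A1 and CYP707A2, which encode abscisic acid 8'-hydroxylases, differed by 0.39 ± 0.28 and -1.02 ± 0.55. Without kai2 mock replicate 1 the values were 0.61 and -0.89.

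Endodermis and suberin genes (11 of 24 in both tables, all raised) had a median difference of 0.35, but 0 had an unadjusted p under 0.05. The effect lay further from 0 in kai2 for 9 of the 11, against 364 of all 599 raised genes. Without kai2 mock replicate 1 the list median was 0.63, and without kai2 zaxinone replicate 1 it was 0.43. ASFT, the feruloyl transferase of suberin, had effects of 1.42 ± 0.24 and 1.87 ± 0.24, and its kai2 mock libraries stood at 3818 for replicate 1 and 1826, 2077 and 2377 for the others. Its difference went from 0.45 to 0.72 without kai2 mock replicate 1. MYB41, a transcription factor of suberin synthesis, had effects of 2.93 and 3.55. CASP5, a Casparian strip membrane protein, had 2.64 and 1.94.

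Low oxygen genes also depended on that library. Of 17 genes, 11 were listed in Col-0 and 5 in kai2, and the 5 in both tables were lowered in each. HRE1, an ethylene response factor of hypoxia, had 17490 to 21094 scaled counts in Col-0 mock, 2129 to 3000 in Col-0 zaxinone, 10498 to 14276 in kai2 mock and 1450 to 2312 in kai2 zaxinone, and its difference was 0.15 ± 0.23. HB1, a nonsymbiotic hemoglobin, had 64761, 13797, 8586 and 9055 in kai2 mock and 2007 to 3344 in kai2 zaxinone. Its difference was -0.84 ± 0.66 with all libraries and 0.36 without kai2 mock replicate 1. PCO1, PCO2 (plant cysteine oxidases) and ACO1 (an ethylene-forming oxidase) were likewise highest in that library, at 4948, 7795 and 13315 against at most 2464, 1783 and 4272 in the other 3 kai2 mock libraries. Their differences went from 0.77, 0.34 and 0.03 to 1.18, 1.4 and 0.80 without it, and the list median from 0.15 to 0.80. Without kai2 zaxinone replicate 1 the list median was 0.25.

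**Figure D4:**
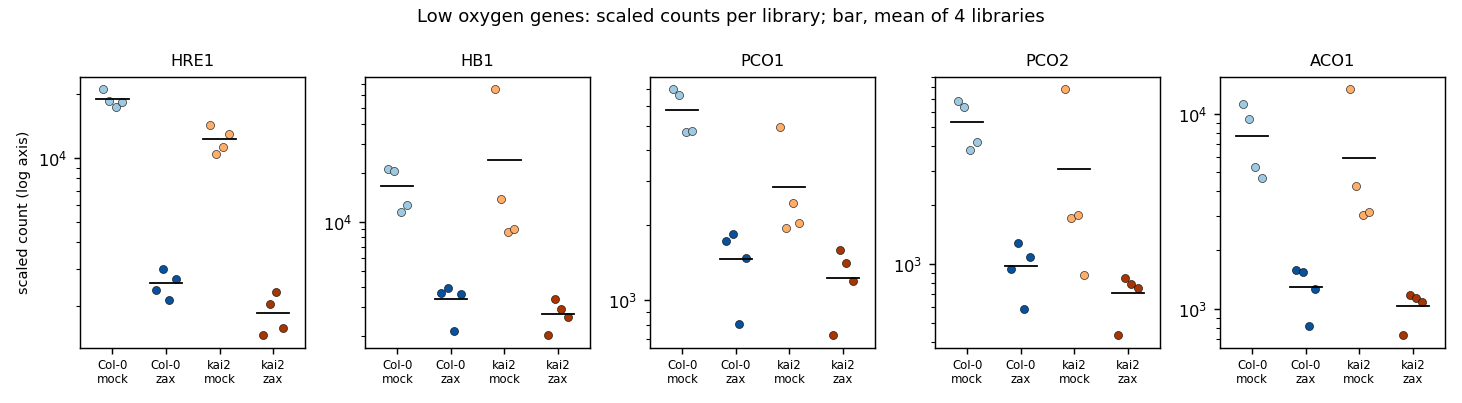
Scaled counts of the 5 low oxygen genes in both tables, per library on a log axis, with a bar at the mean of 4 libraries in each of the groups Col-0 mock, Col-0 zaxinone (zax), kai2 mock and kai2 zaxinone. The first kai2 mock point stands above the other 3 in each gene, by least in HRE1 and most in HB1 at 64761.

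Cytokinin genes (7 of 41 in both tables) had a median difference of 0.63, and 4 of the 7 had an unadjusted p under 0.05. All 7 differences were positive, from 0.34 to 1.76. IPT5, a cytokinin synthase, was lowered in both genotypes, from 4233 to 7023 scaled counts to 1055 to 1181 in Col-0 and from 4187 to 5031 to 1299 to 2084 in kai2. Its mock ranges overlapped and its kai2 zaxinone libraries were all above those of Col-0 (effects -2.24 ± 0.17 and -1.48 ± 0.17, edgeR adjusted p = 0.279). LOG7 and LOG5 were raised, LOG7 by 1.11 in Col-0 and 1.73 in kai2. CKX2, a cytokinin oxidase, had effects of 1.44 ± 0.45 and 3.2 ± 0.52 at 2.75 to 79.8 scaled counts over all 16 libraries.

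Root triterpene genes had the highest median, 1.57, from only 4 genes in both tables. It was 1.79 without kai2 mock replicate 1 and 0.99 without kai2 zaxinone replicate 1. Of the 15 genes of these clusters, 4 were listed in Col-0 and 10 in kai2. THAS1, described above, and MRN1, the marneral synthase, were raised, and the P450 genes CYP702A5 and CYP702A2 were lowered. MRN1 had 51.5 to 994 scaled counts in kai2 zaxinone, with replicate 1 at 994 and the others at most at 191, and its difference of 2.76 ± 1.14 was 1.07 without that library. CYP702A5 went from 6685 to 9087 to 1065 to 2185 in Col-0 and from 3697 to 4983 to 1228 to 1674 in kai2. Its kai2 mock libraries were all below those of Col-0 and the zaxinone ranges overlapped (difference 0.83 ± 0.28, edgeR adjusted p = 0.285).

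**Figure D5:**
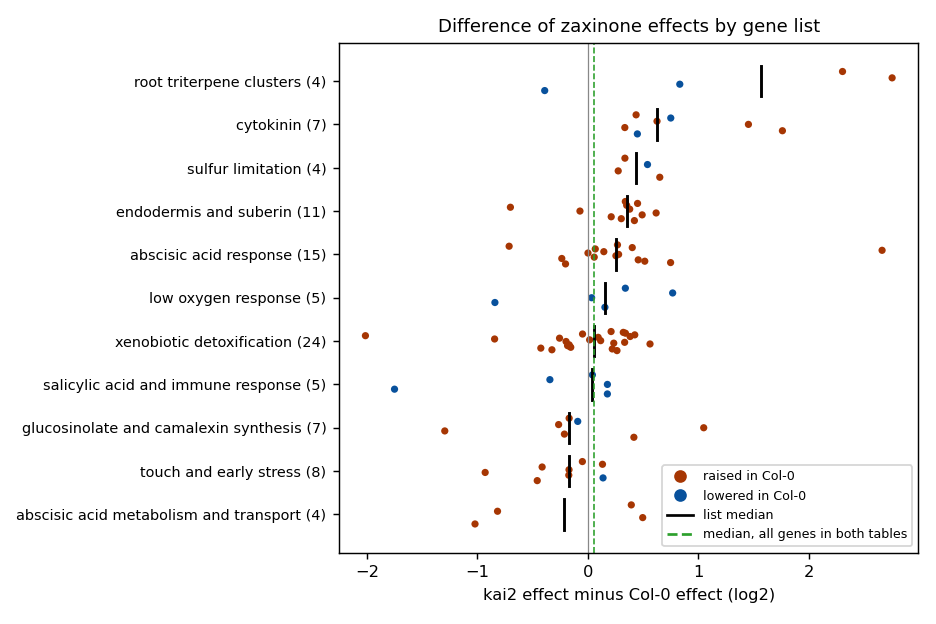
Difference of the zaxinone effect, kai2 minus Col-0 (log2), 1 point per gene, for lists with at least 4 genes in both tables (number in brackets), coloured by whether the gene was raised or lowered in Col-0. Black bars are list medians over all 16 libraries, from -0.21 for abscisic acid metabolism to 1.57 for root triterpene clusters, of which the 3 negative ones become -0.02, 0.08 and 0.28 without kai2 mock replicate 1, and the dashed line is the median of all 1138 genes, 0.06. Without kai2 zaxinone replicate 1 the same 3 medians are -0.15, -0.23 and -0.34.

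Sulfur limitation genes (4 of 19 in both tables) had a median difference of 0.44. It was 0.53 without kai2 mock replicate 1 and 0.25 without kai2 zaxinone replicate 1. SULTR1;1, a root sulfate transporter, was lowered, from 3897 to 6065 to 828 to 1442 scaled counts in Col-0 and from 6018 to 6621 to 1829 to 2619 in kai2, with effects of -2.12 and -1.58. APR3, a reductase of sulfate assimilation, was raised, with effects of 1.67 and 2.01. Glucosinolate and camalexin genes (7 of 32) had a median of -0.17, which turned to 0.08 without kai2 mock replicate 1 and was -0.23 without kai2 zaxinone replicate 1. BGLU23, the root β-glucosidase of ER bodies, had 53821 to 114230 scaled counts in Col-0 mock and 46887 to 78127 in kai2 mock, and rose by 1.48 ± 0.30 in Col-0 and 2.53 ± 0.30 in kai2. CYP71A13, of camalexin synthesis, differed by -1.30 ± 0.87, or by -0.81 without kai2 mock replicate 1, at 0 to 137 scaled counts. BGLU23, CYP71A13, APR3, ASFT and CASP5 overlap other annotated loci, as do FLS2 and CBF3 described below, with the same uncertainty as above.

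Salicylic acid and immune genes (5 of 28, all lowered) had a median difference of 0.04 (0.15 without kai2 mock replicate 1 and -0.002 without kai2 zaxinone replicate 1), and in 4 of the 5 the interval lay within -1 and 1. LURP1, a gene induced by infection, went from 96.2 to 285 to 2.34 to 10.4 scaled counts in Col-0 and from 101 to 179 to 0 to 3.12 in kai2, a difference of -1.75 ± 0.98. FLS2, the flagellin receptor, had effects of -1.18 and -1.52. Touch and early stress genes (8 of 25) had a median of -0.17, which turned to 0.28 without kai2 mock replicate 1 and was -0.34 without kai2 zaxinone replicate 1, and the edgeR unadjusted p was under 0.05 for 0 of them. GOLS2, a galactinol synthase, had effects of 1.70 and 1.24, and CBF3, a cold response factor, 3.26 and 2.33 at 0.851 to 29.8 scaled counts. Without kai2 mock replicate 1 their differences went from -0.46 to -0.20 and from -0.93 to -0.31.

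The remaining lists had 0 to 3 genes in both tables. Root hair and cell wall genes had 0 of 34, with 9 listed in Col-0 and 4 in kai2, and iron genes 1 of 31, with 2 listed in Col-0 and 10 in kai2. These listings are not a test of a difference between genotypes. Among 3 clock genes in both tables, LNK4 fell from 3723 to 4485 to 1304 to 1666 scaled counts in Col-0 and from 1945 to 2916 to 288 to 750 in kai2, with no overlap between genotypes in either treatment. Its difference was -1.06 ± 0.34 (edgeR adjusted p = 0.259).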

How the data were processed

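Per the labels' protocols, paired-end reads came from polyadenylated root RNA. The submitters' processing notes name HISAT2 and StringTie; for genome build and counting tool, the sources used here give nothing. The deposited tables hold raw read counts, normalized counts (a signal), FPKM values, log2 fold changes and p-values, per the file headers. One normalized column held 1 constant, and the factor of that library was worked out from the group mean of the authors. The 16 libraries of Col-0 and kai2 were fitted in edgeR 4.0.16 (quasi-likelihood, R 4.3.3) with the genotype by treatment term, on the raw counts of the 1138 genes in both tables, with Benjamini-Hochberg adjustment over these genes. Library scales were the authors' factors times 1 constant per genotype from the recovered totals, and the constant leaves the difference of effects as it is. Standard errors are Wald errors at the fitted means times the quasi-dispersion. For 20 genes with 0 counts in a whole group the fitted effects depend on the prior count. On simulated data 6.94% of calls were false. DESeq2 1.42.0, limma-voom (limma 3.58.1), other scalings, a filter on low counts, the replicate number as a block and each library left out were alternatives. Replicate libraries differed by far more than sampling noise (chi-square per degree of freedom 16.4 to 226). Members and lists were chosen with earlier results of these data known. Genes were named by 5 rules: (a) the largest differences at an adjusted p under 0.05, (b) list members at that threshold, (c) genes listed in opposite directions, (d) the 4 tightest bounds at effects of at least 3, and (e) the 4 smallest p-values. Rules (a) and (b) gave 0 genes. The DESeq2 calls and the list examples were named after their values were seen. Gene names came from the RefSeq annotation by locus code, with all 1138 matched. A planned search of promoters for motifs was not run.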

Additional observations from a re-analysis of the deposited data

Results flagged for a closer look

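In 228 groups of 4 libraries, those of the genes whose levels are given, 15 held a library far from the other 3; chance alone flags about 1 group in 20. What moved these libraries was not tested.

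Of the 15, 4 were kai2 mock replicate 1, with high scaled counts of HB1 (64761, others 8586 to 13797), PCO2 (7795, others 874 to 1783), ACO1 (13315, others 3030 to 4272) and CCD7 (71.6, others 7.70 to 14.9). Another 4 were kai2 zaxinone replicate 1, high in RD29B (594, others 169 to 239), HB7 (9154, others 5743 to 5960), MRN1 (994, others 51.5 to 191) and LNK4 (750, others 288 to 362). Without that library the differences were 2.1 for RD29B, 0.27 for HB7, 1.07 for MRN1 and -1.49 for LNK4.

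Col-0 mock replicate 1 was high in UGT72E2 (3828, others 2877 to 3006) and AT4G19980 (762, others 498 to 524). Col-0 mock replicate 2 was high in MYB41 (39.0, others 16.2 to 19.7) and Col-0 mock replicate 3 in OPR1 (1155, others 915 to 947). Col-0 zaxinone replicate 3 was low in HB1 (2131, others 3614 to 3911), Col-0 zaxinone replicate 4 was low in CYP707A1 (529, others 613 to 627), and kai2 mock replicate 4 was high in FLS2 (890, others 493 to 554).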

How the results depend on the processing

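The count of 0 genes called by edgeR stayed at 0 with library totals as the scale and with a filter on low counts. Adjustment over all tests implied and stricter thresholds could only give 0 as well. It was 3 with TMM and 7 with median-of-ratios factors (both over the genes in both tables), 2 with limma-voom, 18 with DESeq2 (12 higher and 6 lower in kai2) and 22 with DESeq2 without kai2 mock replicate 1, a setting added after seeing the data, in which 15 of the 18 were kept. Leaving out 1 library gave 0 to 9 calls (0 in 12 of 16 fits): 9 without Col-0 zaxinone replicate 2, 6 without Col-0 zaxinone replicate 1, and 2 each without kai2 zaxinone replicate 1 and kai2 mock replicate 2. Genes at an unadjusted p under 0.05 ranged from 76 to 149 and the median difference from 0.03 to 0.14 in these fits, both highest without kai2 mock replicate 1. In all, 28 genes were called in some setting, UGT72E2 in 9 and CHX17 in 8 of 26. Libraries of the same replicate number were weakly correlated around their group means (-0.34 to 0.25 over 24 pairs). Of 48 comparisons, 18 were highest at the own number, more than the average that chance would give. Pairing by number is thus neither shown nor excluded. With the replicate block edgeR called 2 genes (number shared by all groups) or 1 (number nested in genotype). Of 44 genes followed through all settings, 3 changed sign, and edgeR called none of these in any setting. AT1G17147 (-0.03) became 0.046 with TMM, -0.18 to 0.11 when 1 library was left out, and 0.043 in DESeq2 without kai2 mock replicate 1. CYP72A13 (-0.06) became 0.026 with TMM and -0.19 to 0.11 when 1 library was left out. HB1 (-0.84) ranged from -1.12 to 0.36 in such fits and was 0.36 without kai2 mock replicate 1 in edgeR and DESeq2. CCD7, outside the 44, became 0.99 without it. The cause of these changes was not tested. The 206 genes with a mean under 50 scaled counts had a median standard error of 0.75, against 0.32 for the others. Whether depth or replicate scatter set this was not tested. The promoter search was not run.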
